A study of Homo sapiens with 5 samples.

Results

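The 10 genes described here encode heterogeneous nuclear ribonucleoproteins (hnRNPs): HNRNPU, HNRNPH1, HNRNPA2B1, HNRNPA1, HNRNPC, HNRNPK, HNRNPD, HNRNPDL, HNRNPM and HNRNPL. Their members in the data are the deposited peaks of SRSF9-bound RNA that overlap a fixed hg19 interval around each gene, 290 peaks of 80514 in all. The 10 genes were selected on this same peak table, with its peak positions, classes and ratios known. Peak number and peak class in these intervals are therefore given as descriptions, without a test.

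The splicing factor SRSF9, of the serine/arginine-rich (SR) family, had its bound RNA mapped by eCLIP in HEK 293T, a human embryonic kidney cell line. In eCLIP the RNA is fragmented and immunoprecipitated with its protein, the complex is cut from a membrane, and its RNA is sequenced. The design compared 2 libraries from cells overexpressing SRSF9 alone with 2 libraries from cells overexpressing SRSF9 and ADAR2, an adenosine deaminase acting on double-stranded RNA, and it also held 1 input library from cells overexpressing both. SRSF9 was overexpressed in every library, so none shows binding at the endogenous level alone. The labels name an antibody to SRSF9, and their protocol names beads coupled for MYC. The study asked how SRSF9 acts on ADAR2 targets. The labels do not name separate cultures for the libraries, so p-values cover the spread between libraries alone, and that spread may be technical.

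The hnRNPs are abundant nuclear proteins that coat nascent transcripts, and many of them oppose or assist SR proteins in the choice of splice sites. They differ in the RNA they prefer, such as uridine runs for hnRNP C, guanine runs for hnRNP H, cytosine-rich stretches for hnRNP K, CA repeats for hnRNP L and AU-rich elements for the HNRNPD product AUF1. Genes of both families commonly regulate their own mRNAs by alternative splicing, often through exons that expose the transcript to nonsense-mediated decay. The transcripts of these genes can thus be bound by splicing factors as substrates.

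Each deposited peak carries a class, which is present with ADAR2 only, present without ADAR2 only, or present in both conditions (shared). Where a peak is present, the table gives a log2 ratio made by the authors for each library, with a denominator that it does not name. Read depth is not in the table and is unknown here, so no interval can be put on a single ratio. The table has no strand and no gene name, so a peak is placed in a gene by position alone. Values over the whole table were lowest in the second SRSF9-only library, with a median of 0.24 against 1.07 in the first and 1.16 and 1.06 in the libraries with ADAR2. Library columns carry no replicate name and are called first and second in file order.

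The intervals were checked against their surroundings. They ranged from 8000 nt for HNRNPA1 to 61000 nt for HNRNPC. Peak density inside was highest in HNRNPA1, at 4.63 peaks per kb, and in HNRNPU, at 3.07, and lowest in HNRNPM, at 0.556. Flanks of the same length on either side held 9 peaks together in HNRNPU and 0 to 5 in the other genes, so the peaks were concentrated in the labelled intervals. The intervals are longer than the genes in RefSeq, for example 8000 nt against 6362 nt in HNRNPA1 and 9000 nt against 7899 nt in HNRNPDL. In the GENCODE annotation, whose GRCh38 coordinates were not used, CBX5 lies next to HNRNPA1, CBX3 next to HNRNPA2B1, COX20 next to HNRNPU and ENOPH1 next to HNRNPDL, all on the opposite strand. Peaks at those edges can belong to a neighbour.

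The hnRNP genes held a larger share of shared peaks than the table as a whole, in company with other places where peaks lie densely. Of the 290 peaks, 80 were shared, which is 27.6% (95% Wilson interval 22.8 to 33.0, counting error over peaks only), against 4.72% in the whole table. A further 168 peaks, 57.9% (52.2 to 63.5), were found only with ADAR2, against 89.4% in the table. The remaining 42 peaks, 14.5% (10.9 to 19.0), were found only without ADAR2, against 5.92%. The genes thus held 2.10% of all shared peaks, 0.233% of all peaks found only with ADAR2 and 0.882% of all found only without it. Every listed row was counted as a peak, and some shared rows repeat the same coordinates. The 80 shared rows covered 73 distinct regions, and the 3802 of the whole table covered 3645. In HNRNPU, HNRNPH1, HNRNPA2B1 and HNRNPD, 16, 18, 11 and 9 shared rows covered 13, 17, 9 and 8 regions. The Wilson intervals take no account of repeated or neighbouring rows.

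Density accompanied these shares. The median hnRNP peak had 16 other peaks within 5000 nt. Elsewhere 1084 peaks had at least as many, and of these 24.6% (22.2 to 27.3) were shared, 58.9% (56.0 to 61.8) were found only with ADAR2 and 16.4% (14.3 to 18.7) only without it. All hnRNP peaks were counted, including those with fewer peaks nearby, so density was not matched. The class shares of the hnRNP genes lay within 3 percentage points of those shares. The part of RNA abundance in them was not tested, because the table holds no expression values. The cells were processed in bulk, so fewer cells with a bound RNA and less bound RNA per cell cannot be told apart.

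**Figure D1:**
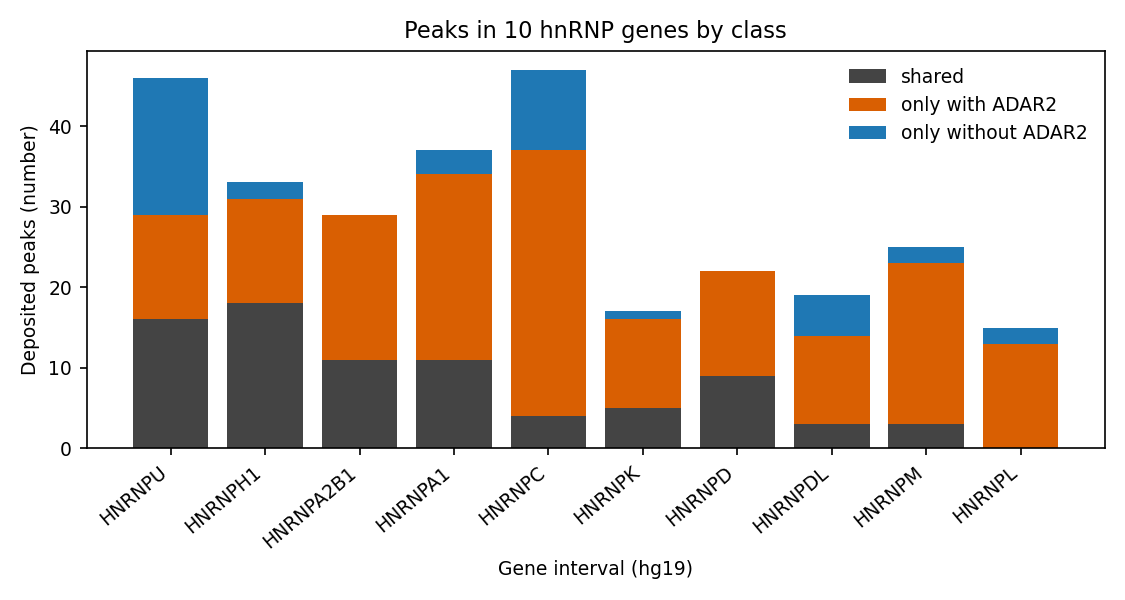
Number of deposited peaks (vertical axis) in each of the 10 hnRNP gene intervals (horizontal axis), stacked by class. HNRNPU and HNRNPC had the most peaks, with 46 and 47, and HNRNPU had the most found only without ADAR2, with 17. HNRNPL had no shared peak, and HNRNPA2B1 and HNRNPD had none found only without ADAR2.

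The genes differed widely in class. HNRNPU, which encodes a nuclear scaffold protein that binds RNA and chromatin, had 16 shared peaks, 13 only with ADAR2 and 17 only without. It was the single gene of the 10 with more peaks without ADAR2, 33, than with it, 29. In the other 9 genes the ratio of peaks with ADAR2 to peaks without ran from 1.55 in HNRNPH1 to 6.50 in HNRNPL, below the 8.84 of the whole table. Over those 9 genes the peaks found only without ADAR2 numbered 25 of 244, or 10.2% (7.04 to 14.7), and shared peaks made up 26.2%.

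HNRNPH1, whose product binds guanine-rich splicing elements, had the largest shared part, 18 of 33 peaks, or 54.5% (38.0 to 70.2). HNRNPD, which encodes the mRNA decay factor AUF1, followed with 9 of 22, and HNRNPA2B1, a splicing and RNA transport factor, with 11 of 29. In these last 2 genes every peak without ADAR2 was shared. HNRNPA1, a splicing repressor that often opposes SR proteins, had 11 shared peaks, 23 only with ADAR2 and 3 only without. HNRNPK, encoding a protein with KH domains that binds cytosine-rich RNA, had 5, 11 and 1.

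HNRNPC, HNRNPM and HNRNPL had the largest shares of peaks found only with ADAR2 among the 10 genes, from 70.2% in HNRNPC to 86.7% in HNRNPL, all below the 89.4% of the whole table. HNRNPM, which encodes another splicing regulator, had 3 shared peaks, 20 only with ADAR2 and 2 only without. HNRNPC, which encodes a core protein of the nuclear hnRNP particle, had 4, 33 and 10. HNRNPL had 0, 13 and 2. HNRNPDL, a close relative of HNRNPD, had 3, 11 and 5. Counts in single genes are small: the 95% Wilson interval of the shared part in HNRNPDL, for example, ran from 5.52% to 37.6%.

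A fixed minimum on the ratio changed the picture. With a log2 ratio above 1 required in every library of the condition, 0 of the 80 shared peaks remained, with 68 of the 168 found only with ADAR2 and 2 of the 42 found only without it. The 2 were in HNRNPDL and HNRNPL. In the whole table the same minimum left 154 shared peaks, 30951 and 487. All 80 shared hnRNP peaks were lost because none exceeded 1 in the second SRSF9-only library, where 8.31% of the shared peaks of the table did. In the first SRSF9-only library 27.5% of the shared hnRNP peaks exceeded 1.

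Intervals were also read from the 5′ edge by the annotated strand. Of the 80 shared peaks 54 were nearer the 3′ edge, but 27 of these were all the shared peaks of HNRNPH1 and HNRNPD, and every HNRNPH1 peak of any class lay there. In the other genes shared peaks were evenly divided, with 26 nearer the 5′ edge and 27 nearer the 3′ edge. HNRNPU, with 10 of 16, and HNRNPA1, with 6 of 11, had more of them nearer the 5′ edge. Of the peaks found only with ADAR2, 98 of 168 were nearer the 5′ edge (89 of 142 without HNRNPH1 and HNRNPD), as were 17 of the 42 found only without it (17 of 40). Within 2000 nt of the 5′ edge there were 35 peaks found only with ADAR2, 6 found only without it and 3 shared. The 35 included 10 in HNRNPA2B1 and 7 in HNRNPA1. An interval edge is not the start of the gene, so part of this stretch can lie outside it. The same count was not made for other genes. These counts are over peaks of 10 genes and were not tested. Exons and introns could not be assigned, since no annotation of the hg19 build was used here.

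**Figure D2:**
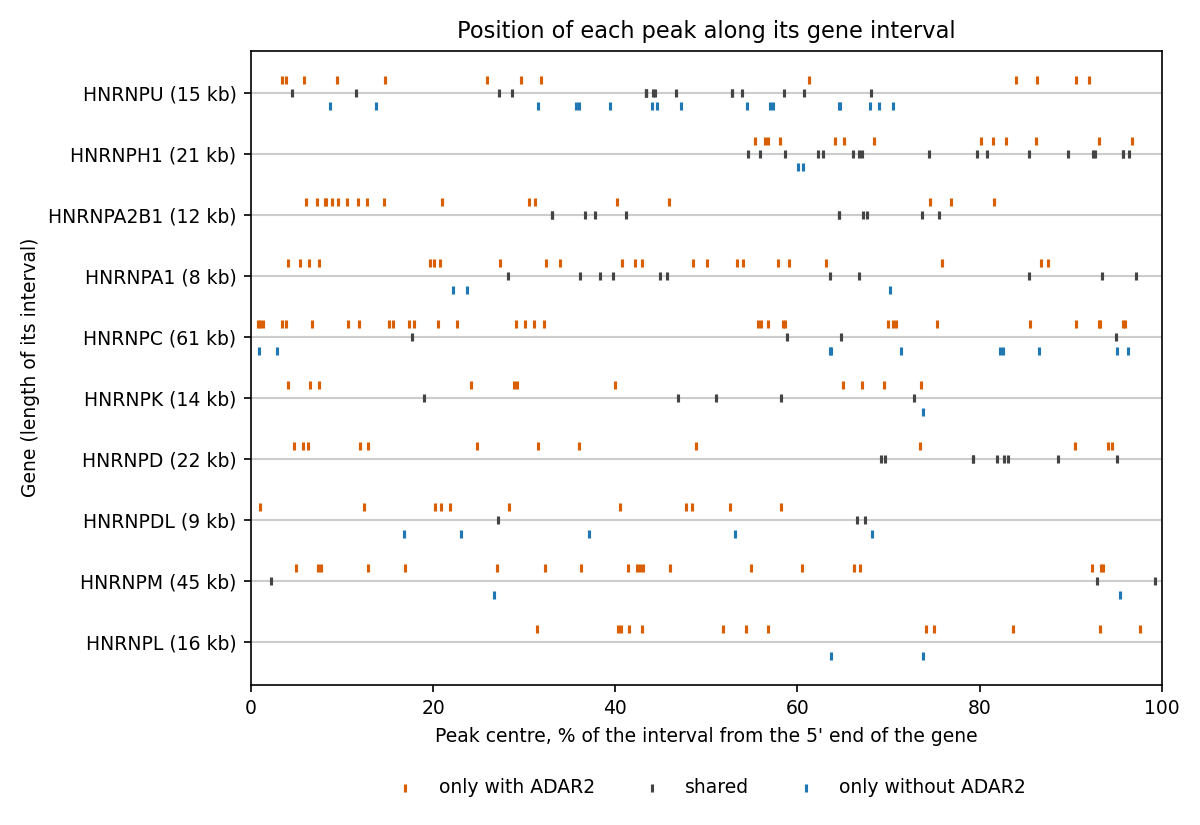
Centre of each peak as a percentage of its gene interval from the 5′ edge (horizontal axis), with 1 line for each gene (vertical axis) and 3 rows of ticks for peaks found only with ADAR2 (upper), shared (on the line) and found only without ADAR2 (lower). All 33 HNRNPH1 peaks lay in the 3′ part of its interval, and the 10 peaks of HNRNPA2B1 within 2000 nt of the 5′ edge were found only with ADAR2.

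HNRNPA2B1 and HNRNPD showed this arrangement most plainly. In HNRNPA2B1, 10 peaks lay within 2000 nt of the 5′ edge and all 10 were found only with ADAR2, with the highest at chr7:26239246-26239263 (ratios 1.37 and 1.68). Of these 10 peaks, 7 formed 1 run with gaps of at most 100 nt. They lie on the side of CBX3, and without strand the gene of origin was not tested. The shared peaks of HNRNPA2B1 began 3919 nt from the edge. In HNRNPD all 9 shared peaks lay at least 15211 nt from the 5′ edge of the 22000 nt interval, whereas 9 of the 13 peaks found only with ADAR2 were nearer the 5′ edge.

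HNRNPH1 peaks all lay in the 3′ part of the interval. The first began 11358 nt from the 5′ edge of the 21000 nt interval and the last 20305 nt from it. RefSeq, on another build, lists 4 starts for HNRNPH1, with the later ones 10184, 11113 and 11383 nt downstream of the first. The stretch of the interval without peaks was thus about as long as the distance between the first start and the later ones. Which starts these cells use was not tested. In HNRNPC, the longest interval, 18 of the 33 peaks found only with ADAR2 but 2 of the 10 found only without it were nearer the 5′ edge.

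Peaks of one class often lay beside peaks of another. Of the 42 found only without ADAR2, 39 had a peak with ADAR2 within 1000 nt, which is 92.9% (81.0 to 97.5), against 63.2% in the whole table. Within 100 nt the share was 35.7%, against 24.0%. A shared peak lay within 1000 nt of 30 of the 42, against 17.4% of such peaks in the table. Gaps of at most 100 nt joined the 290 peaks into 190 sites, of which 23 mixed shared and exclusive peaks, 106 held only peaks found with ADAR2 and 21 held only peaks found without it. The part of peak density in these distances was not tested.

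A stretch of HNRNPU showed how the classes divided 1 run of neighbouring peaks. Whether the run is a single bound site was not tested. From chr1:245021315 to 245021554 the table listed, in order, a peak found only without ADAR2, 2 shared regions, a second peak found only without ADAR2 and a wide shared region of 117 nt that stands in 3 rows. All 5 carried the same value of 0.35 in the second SRSF9-only library. Over the 10 genes, 5 of the 42 peaks found only without ADAR2 had exactly the value of a shared peak within 100 nt in a library of their condition, 4 of them in HNRNPU, against 3.21% of such peaks in the table. In the second SRSF9-only library 58.8% of the shared hnRNP rows had values with more than 3 decimals, as a mean of several values would, against 28.4% in the table. Neighbouring rows are therefore not independent measurements, and a class assigned to a narrow row need not describe a separate site.

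The highest ratios of peaks found only with ADAR2 were in HNRNPM, HNRNPU, HNRNPC and HNRNPA1. The highest mean in the 10 genes, 3.09, was in HNRNPM at chr19:8512312-8512341, with 2.65 in the first and 3.52 in the second library. In HNRNPU an 11 nt peak at chr1:245023222-245023232 had 3.81 and 2.33. In HNRNPC a peak at chr14:21727365-21727443 had 3.30 and 2.57, and 109 nt away lay the highest shared region of that gene. In HNRNPA1 a peak at chr12:54677305-54677334 had 3.07 and 2.71. These 4 were picked as the highest of their gene, so a place above the median follows from that choice. Over all peaks of this class in the table the medians were 1.13 and 1.06, and the highest values were 5.593 and 4.645. The highest such peaks in HNRNPD (chr4:83293167-83293184, 2.39 and 2.65), HNRNPH1 (chr5:179050332-179050439, 2.53 and 1.91), HNRNPDL (chr4:83349432-83349469, 2.27 and 1.59), HNRNPL (chr19:39334274-39334339, 2.11 and 1.69) and HNRNPK (chr9:86595422-86595458, 1.56 and 1.21) were lower. The 4 peaks at the 5′ edge of the HNRNPA1 interval, on the side of CBX5, had 2.35 to 2.49 in the first and 1.83 to 2.81 in the second library.

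For peaks found only without ADAR2, the libraries of the condition lay apart, with medians of 0.91 in the first and 0.32 in the second. They also lay apart over all such peaks in the table, with medians of 1.24 and 0.28. In HNRNPM the highest, at chr19:8520980-8521021, had 2.98 and 0.64. In HNRNPC a 20 nt peak at chr14:21687830-21687849 had 2.24 and 0.64. The first library also had exactly 2.24 in 2 other HNRNPC peaks and in 1 peak each of HNRNPDL and HNRNPL. Such repeats between distant peaks were not confined to that library. In the first library with ADAR2, shared regions of HNRNPD, HNRNPH1, HNRNPK and HNRNPM had exactly 1.654. The read counts behind repeated values are unknown. The highest in HNRNPL, at chr19:39332796-39332810, was the exception to the gap between the SRSF9-only libraries, with 2.24 and 2.32. It had no peak with ADAR2 within 1000 nt. In HNRNPDL the highest, at chr4:83349915-83349937, had 2.24 and 1.22. These were the 2 peaks that exceeded 1 in both libraries. In HNRNPU, with most peaks of this class, the highest was at chr1:245019443-245019458, with 1.66 and 0.42. In HNRNPA1 it was at chr12:54674889-54674901 with 1.77 and 0.55, in HNRNPH1 at chr5:179049264-179049300 with 0.96 and 0.62, and in HNRNPK at chr9:86585673-86585675 with 1.14 and 0.34.

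Ratios below 0 were concentrated in HNRNPC. Of the 21 hnRNP peaks found only with ADAR2 that were below 0 in both libraries, 14 lay in HNRNPC, which is 14 of its 33 peaks of that class or 42.4% (27.2 to 59.2). In the whole table the share was 7.40%, and in HNRNPU, HNRNPH1, HNRNPA2B1, HNRNPK and HNRNPDL it was 0 of 11 to 18 peaks each. The lowest of them, at chr14:21728777-21728804, had -1.35 and -2.14. Of the peaks found only without ADAR2, 11 of 42 were below 0 in both libraries, 26.2% (15.3 to 41.1), close to the 23.4% of the table, and 4 of these were in HNRNPC and 4 in HNRNPU. The lowest, in HNRNPU at chr1:245025944-245025955, had -1.71 and -1.56. A position of 0 on this scale depends on the unnamed denominator.

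The log2 ratio in shared regions tended to be higher with ADAR2 in all 9 genes that had any except HNRNPC. Rows with identical coordinates were averaged, which left 73 shared regions in these genes of 3645 in the table. Their medians were 0.66 and 0.25 in the first and second SRSF9-only libraries and 1.64 and 1.17 in the libraries with ADAR2, against 0.95, 0.20, 1.31 and 1.02 over all shared regions. The median difference, with minus without ADAR2, was 0.98 in the hnRNP genes and 0.62 over all regions. It was positive in 65 of the 73 regions, or 89.0%, against 73.6%. The libraries did not overlap in 54 of the 73 regions with the ADAR2 pair higher, beside 49.9% of all, and in 5 with that pair lower, beside 9.22%. After each library was centred on its median these counts were 41, beside 33.8%, and 10, beside 30.5%. The centred difference was positive in 53 of the 73 regions, or 72.6%, against 51.1% of all.

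**Figure D3:**
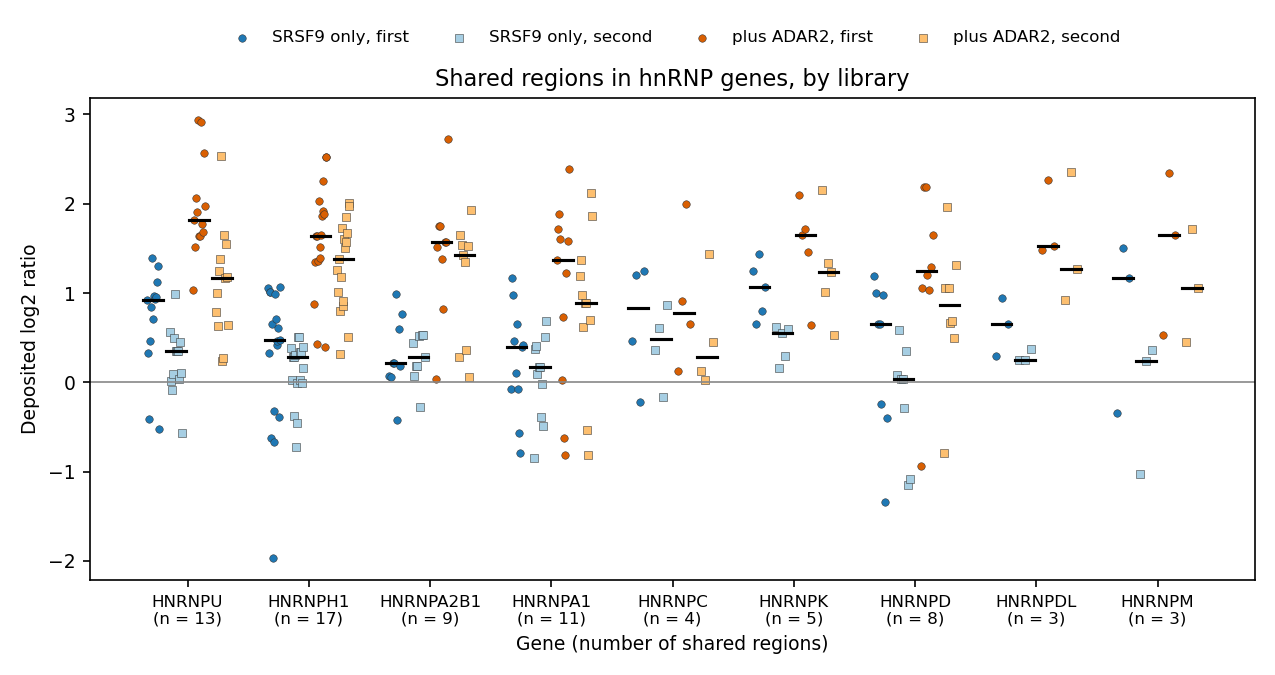
Deposited log2 ratio (vertical axis) of the 73 shared regions in each of the 4 libraries, by gene (horizontal axis), with 1 point for each region and a black bar at the median. In each gene but HNRNPC both medians with ADAR2 lay above those of the SRSF9-only libraries, except that in HNRNPM the second library with ADAR2 (1.06) lay below the first SRSF9-only library (1.17).

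Differences were tested with limma over all 3645 shared regions, at n = 2 libraries per condition. A Benjamini-Hochberg adjusted p under 0.05 was taken as passing. In this fit limma pooled the variance fully over regions, so each region had the same standard error of 0.591. A region's own spread between libraries thus played no part in its p, and passing depended on the size of the difference alone. Of the 73 hnRNP regions 19 rose, or 26.0%, beside 18.5% of all shared regions, and 0 fell, beside 2.41% (33 and 1 at an unadjusted p under 0.05). The genes were selected with these ratios known, which the p-values do not take into account. The shares are therefore descriptions, and their difference from the whole table was not tested. The rises were in HNRNPH1 (6 of 17), HNRNPU (3 of 13), HNRNPA1 (3 of 11), HNRNPD (3 of 8), HNRNPA2B1 (2 of 9), HNRNPC (1 of 4) and HNRNPDL (1 of 3), and none passed in HNRNPK (5 regions) or HNRNPM (3). Centring brought the median difference to 0.03 over all regions and to 0.39 in the hnRNP genes. In the centred values 10 regions were higher, or 13.7% beside 12.6% of all, and 1 was lower, or 1.37% beside 10.9%. After centring the count of rises was thus near its background. Leaving out 1 library left a condition with a lone library, whose spread was taken from the other pair. With the first or second SRSF9-only library left out, limma called 0 of all 3645 regions, and so 0 of the 73 (34 and 23 higher, and 0 and 1 lower, at an unadjusted p under 0.05). These fits therefore say nothing particular about the hnRNP genes. With the first or second library with ADAR2 left out, 1 and 3 of the 73 rose, or 1.37% and 4.11%, beside 1.92% and 5.46% of all regions. The HNRNPH1 region from chr5:179044991 was in both sets.

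**Figure D4:**
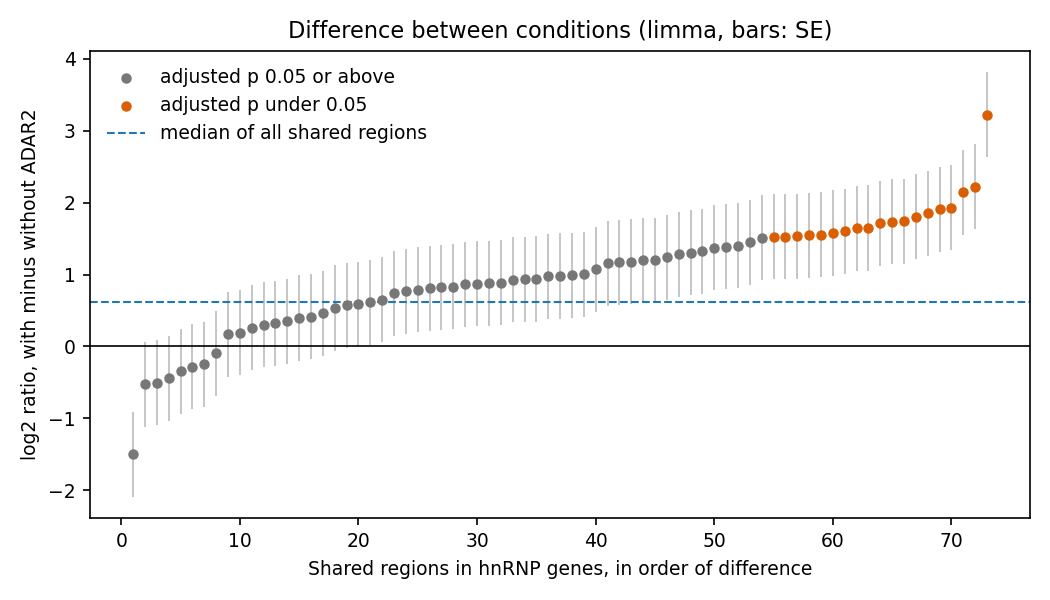
Difference in log2 ratio, with minus without ADAR2 (vertical axis), for the 73 shared regions in order of size (horizontal axis), with bars for limma's standard error of 0.591, which was the same for every region. The 19 coloured regions, from 1.52 to 3.22, passed the threshold, and 8 regions were below 0. The dashed line is the median of all shared regions, 0.62.

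The largest rise was in HNRNPH1. At chr5:179044991-179045061 the ratios were -1.97 and -0.72 with SRSF9 alone and 2.03 and 1.73 with ADAR2. The groups did not overlap, and the region changed from below to above 0. The difference was 3.22 ± 0.59 (SE pooled over all shared regions, n = 2 per condition), and the limma adjusted p was 4.41e-06 (0.00127 when centred). Nearer the 5′ end of HNRNPH1, the wide region at chr5:179050460-179050642 had 0.47 and 0.16 without ADAR2, against 2.53 and 1.97 with it, a difference of 1.93 (limma adjusted p = 0.00996, or 0.0231 when centred). The same first value with ADAR2, 2.53, stood in the neighbouring region at chr5:179050214-179050311, which rose by 1.53. The other three regions of this gene that rose began at chr5:179046312, chr5:179048092 and chr5:179048759, with differences of 1.55, 1.52 and 1.65. These and the region from chr5:179050214 did not pass after centring (limma adjusted p = 0.136, 0.0979, 0.0697 and 0.095), which left 2 of the 6 rises. All 17 HNRNPH1 regions had a higher mean with ADAR2, beside 73.6% of all shared regions. After centring 15 of the 17 did, beside 51.1% of all.

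In HNRNPD the neighbouring regions 15211 and 15291 nt from the 5′ edge both rose. At chr4:83280758-83280789 the ratios were -0.40 and -1.08 without ADAR2, against 1.65 and 1.31 with it. At chr4:83280674-83280709 they were -1.34 and -1.15 without and 1.29 and 0.50 with it. The differences were 2.22 and 2.14 (limma adjusted p = 0.0026 and 0.00386), and neither pair of groups overlapped. The highest shared region of HNRNPD, at chr4:83277709-83277729, rose by 1.73, from 0.66 and 0.04 to 2.19 and 1.97. Its neighbour at chr4:83277793-83277837 had the same values except in the second library with ADAR2, at 1.06. That neighbour did not pass (limma adjusted p = 0.105). The gene also had the lowest difference of the 73, at chr4:83275058-83275094 near its 3′ edge. There the ratios were 1.19 and 0.08 without ADAR2, against -0.93 and -0.79 with it, a difference of -1.49 that did not pass (limma adjusted p = 0.0532) but did after centring (0.00133).

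HNRNPU regions were higher with ADAR2 in 13 of 13 cases, although the gene had more peaks called without it. Over all shared regions 73.6% were higher. After centring 10 of the 13 HNRNPU regions were higher, beside 51.1% of all. The region nearest the 5′ edge, at chr1:245027309-245027332, had -0.52 and -0.57 without ADAR2, against 1.98 and 0.65 with it, a difference of 1.85 (limma adjusted p = 0.0136, or 0.0469 when centred). The wide region at chr1:245021438-245021554 had 0.94 and 0.35 without and 2.91 and 1.65 with ADAR2, a difference of 1.64. The highest shared region of the 10 genes by mean, at chr1:245020972-245021019, had 1.40 and 0.99 without and 2.93 and 2.54 with it, a difference of 1.54. Neither of these last regions passed after centring (limma adjusted p = 0.0824 and 0.0911). In HNRNPU the first library with ADAR2 exceeded the second in all 13 regions, by a median of 0.82, against a median of 0.25 over all shared regions. Without that library the differences of the 3 regions were 1.19, 1.01 and 1.35, and none passed, in a fit where 1.92% of all regions rose.

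HNRNPA1 and HNRNPA2B1, which encode closely related proteins of the A/B group, each had regions that rose. In HNRNPA1 the region at chr12:54675233-54675287 had -0.07 and -0.85 without ADAR2, against 1.38 and 1.19 with it, a difference of 1.74 (limma adjusted p = 0.0222, or 0.0431 when centred). The regions at chr12:54679806-54679869 and chr12:54680745-54680810, towards the 3′ edge, rose by 1.60 and 1.58, but did not pass after centring (limma adjusted p = 0.0974 and 0.103). Between them and the 5′ region lay 2 regions below 0 in every library. At chr12:54678335-54678343 the ratios were -0.57 and -0.02 without and -0.81 and -0.82 with ADAR2, and at chr12:54678073-54678102 they were -0.08 and -0.39 without and -0.62 and -0.53 with it. In HNRNPA2B1 the region at chr7:26236984-26237081 had 0.77 and 0.28 without and 2.72 and 1.93 with ADAR2, a difference of 1.80 (limma adjusted p = 0.0172, or 0.0379 when centred). That at chr7:26232114-26232197 had 0.06 and 0.07 without and 1.52 and 1.65 with it, a difference of 1.52 that did not pass after centring (limma adjusted p = 0.114).

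HNRNPC differed in direction among its few regions. A 9 nt region at chr14:21702121-21702129 had -0.22 and -0.16 with SRSF9 alone and 1.995 and 1.44 with ADAR2, a difference of 1.91 (limma adjusted p = 0.011). The other three were lower on average with ADAR2, with differences of -0.28, -0.44 and -0.51, and none passed. The highest of them by mean, at chr14:21727218-21727255, had 1.24 and 0.87 without and 0.65 and 0.45 with ADAR2. In HNRNPDL the region at chr4:83345982-83346037 had 0.95 and 0.25 without and 2.27 and 2.35 with it, a difference of 1.71 (limma adjusted p = 0.0244), and the other two regions had differences of 0.88 and 0.93.

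HNRNPK and HNRNPM had no region past the threshold. The highest HNRNPK region, at chr9:86585796-86585834, had 1.24 and 0.62 without ADAR2, against 2.10 and 2.16 with it. Its groups did not overlap, and the difference was 1.20 (limma adjusted p = 0.13). In HNRNPM the highest region, at chr19:8550769-8550817, had 1.51 and 0.24 without and 2.34 and 1.72 with ADAR2. A region near the 5′ edge of HNRNPM, at chr19:8509942-8509993, was below 0 without ADAR2, at -0.34 and -1.02, and above it with ADAR2, at 0.54 and 0.45. With 2 libraries per condition, an exact permutation test of a single region cannot give a p below 0.333.

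Regions elsewhere, at or above the median density of the hnRNP peaks, gave smaller differences. In the 214 shared regions of the rest of the table with at least 16 other peaks within 5000 nt, the median difference was 0.46, 12.6% rose and 6.07% fell. Over these regions the library medians were 0.52 and 0.12 without and 1.12 and 0.71 with ADAR2. Values in the hnRNP regions were higher in all 4 libraries. All 73 hnRNP regions were kept, including those with fewer peaks nearby, so the sets were not matched on density. This comparison was chosen after the data were examined and was not tested.

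By gene, the median ratio over shared regions with ADAR2 gave no firm order. In the first library with ADAR2 it ran from 0.78 in HNRNPC to 1.82 in HNRNPU, with HNRNPK and HNRNPM at 1.65, HNRNPH1 at 1.64, HNRNPA2B1 at 1.57, HNRNPDL at 1.53, HNRNPA1 at 1.38 and HNRNPD at 1.25. In the second library it ran from 0.29 in HNRNPC to 1.42 in HNRNPA2B1, and HNRNPU was at 1.17. HNRNPC was lowest in both libraries, while neighbours elsewhere in the order changed places between them. Without ADAR2 the order again differed between libraries, from 0.22 in HNRNPA2B1 to 1.17 in HNRNPM in the first and from 0.04 in HNRNPD to 0.55 in HNRNPK in the second.

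Peak widths in the hnRNP genes were near those of the table. The median was 48 nt for shared peaks (quartiles 29 and 78.5), 34.5 nt for peaks only with ADAR2 and 27 nt for peaks only without it, against 51, 34 and 32 nt in the table. The widest hnRNP peak, of 228 nt, was found only with ADAR2, near the 5′ edge of HNRNPD.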

How the data were processed

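The data were 1 deposited table of peaks with 4 columns of log2 ratios made by the authors. Per the submitters' processing notes the build was hg19. The aligner, peak caller, thresholds, treatment of replicates and the denominator of the ratio are not given in the labels or the table used here. Columns were assigned to conditions by the class of each row: a pair holds 0 as a placeholder wherever a peak is absent from its condition. No depth is given in the table.

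Members were rows overlapping the 10 fixed intervals by at least 1 nt. Positions are counted from 1. Strand came from GENCODE release 29 and gene length from RefSeq, where all 10 genes matched by symbol, and RefSeq starts were matched for 9. No hg19 sequence was used, so none is printed. The members and all lists were chosen with earlier results of these data known. Single peaks named are those with the highest or lowest mean in a gene and class, and all shared regions past the threshold. Other regions were named after their values were seen.

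Shared rows with identical coordinates were averaged. limma 3.58.1 (R 4.3.3) compared the conditions over all 3645 shared regions, with Benjamini-Hochberg adjustment and no pseudocount, because the values are already on a log2 scale. It was tried on simulated data with equal, independent noise in every region. The simulation had no offset between libraries and no values shared between neighbouring rows, unlike these data. Alternatives were library centring, leaving out each library, a trended robust prior, other treatment of identical or neighbouring rows, interval edges moved by 1 kb, minimum ratios and other distances.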

Additional observations from a re-analysis of the deposited data

How the results depend on the processing

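The direction of the median difference and of all 19 regions that rose held under every alternative in which they could be tested. The number of rises did not. It was 10 after centring, 0 of 55 among regions above 0 in every library (17 at an unadjusted p under 0.05), where 3.05% of such regions in the table rose, and 0 to 3 when 1 library was left out, where 0% to 5.46% of all regions rose. The median difference then ranged from 0.76 to 1.22. With a trended robust prior 14 regions rose (19.2%, beside 20.0% of all), 10 of them among the 19. Centring and the robust prior each called 1 region lower, and leaving out a library called 0 lower. With regions within 100 nt averaged, an alternative chosen after seeing the data, 13 of 59 rose (22.0%, beside 18.1%). No paired analysis was possible because the columns carry no replicate numbers.

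Of the peak counts, a minimum log2 ratio of 1 left 0 shared peaks, 68 only with ADAR2 and 2 only without it. Without HNRNPU, added after seeing the data, 25 peaks found only without ADAR2 remained. Intervals changed by 1 kb at each edge gave 72 and 80 shared peaks. Closeness to a peak of the other condition within 100, 250 and 1000 nt was 35.7%, 59.5% and 92.9% for peaks only without ADAR2. In the whole table these shares were 24.0%, 38.0% and 63.2%. For peaks only with ADAR2 the values were 16.7%, 36.9% and 53.0%, against 2.48%, 4.58% and 10.3% in the whole table. The unknown depth limits every single ratio.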
